A study of Mus musculus with 8 samples.

Results

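The collagen IV genes (Col4a1 to Col4a6), the nidogen genes Nid1 and Nid2, Hspg2, which encodes perlecan, and Col18a1, which encodes collagen XVIII, were followed at 2 ages in wild-type mice, in mesenchyme of the small intestine. These 10 genes were chosen by name, and each matched 1 of the 46635 loci of the deposited table. 4 libraries came from pups at postnatal day 14 (P14) and 4 from fetuses at embryonic stage E17.5. In both groups EDTA had been used to take off the epithelium before RNA was extracted from what was left of the small intestine. The age label of the fetal libraries reads E17, and the protocol gives E17.5. The labels do not say if libraries were made from single or pooled animals. The p-values therefore only reflect how far these libraries spread, which may be technical.

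Basement membranes are thin sheets of matrix under epithelia and around muscle cells, vessels and nerves. Collagen IV chains assemble by threes into a network that carries tension, laminins form a second network that binds cells, and nidogens and perlecan bind both. Collagen XVIII is a proteoglycan of basement membranes whose C-terminal fragment, endostatin, acts on vessels. The Col4a1 and Col4a2 chains make the network found in nearly all basement membranes. Col4a5 and Col4a6 chains occur together in a network known around smooth muscle, and Col4a3 and Col4a4 chains join Col4a5 in the network of the kidney glomerulus.

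The libraries held 17702122 to 18474346 reads assigned to genes at P14 and 16660998 to 19496632 at E17.5. The deposited FPKM of P14 replicate 1 rest on a library size of 0.78 times its reads, and those of the remaining 7 libraries on 1.02 to 1.06 times theirs. P14 replicate 1 also stood apart in content. Its 12 pan-epithelial markers summed to 3973 FPKM and its 10 smooth muscle markers to 2931 FPKM. In P14 replicates 2 to 4 the epithelial sum was 123 to 628 FPKM and the smooth muscle sum 8021 to 11260 FPKM, against 32.2 to 54.2 and 5016 to 5498 FPKM at E17.5. Among the 10 tested epithelial markers, Cldn3, Cldn7, Elf3, Cdx2 and Cdh1 had E17.5 means of 0.237 to 0.666 FPKM. They met the filter of 1 FPKM in 4 libraries mainly through P14, which favours a call of higher. Of the 10 markers limma called 9 higher at P14, where it called 9.72% of all tested genes higher. By limma voom it was 2, and none of the markers was at 0 in all libraries. Results below are therefore also given without P14 replicate 1. In bulk RNA, fewer cells of a type and less RNA per cell cannot be told apart.

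At P14, Nid2, Col4a5 and Col4a6 were at 0.432, 0.449 and 0.381 times their mean E17.5 level. Col4a1, Nid1 and Col18a1 were lower by smaller amounts, and these passed the test only without P14 replicate 1. Hspg2 was higher in P14 replicates 2 to 4 and lower in P14 replicate 1. Col4a2 did not pass the test either way. Of the 8 genes with enough signal to test, 3 fell and 0 rose by limma with Benjamini-Hochberg adjustment, where 24.7% of all 14044 tested genes changed, 15% down and 9.72% up. At an unadjusted p under 0.05 limma counted 0 rises and 5 falls among them, and limma voom on recovered reads called 0 and 3. With P14 replicate 1 left out, 6 fell and 1 rose, where 49.5% of all tested genes changed, 26.9% down and 22.6% up. In 6 of the 8 genes every P14 library was below every E17.5 library, as in 20.4% of all tested genes, and in 0 of them every P14 library was above (15.6% of all). With P14 replicate 1 left out these were again 6 (29.7% of all) and 1, Hspg2 (24.8% of all). The median log2 fold change, P14 over E17.5 on the log2(FPKM + 1) scale, was -0.67 over the 8 genes and 0.00219 over all tested genes. Without P14 replicate 1 it was -0.45 over the 8 genes and -0.03 over all.

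**Figure D1:**
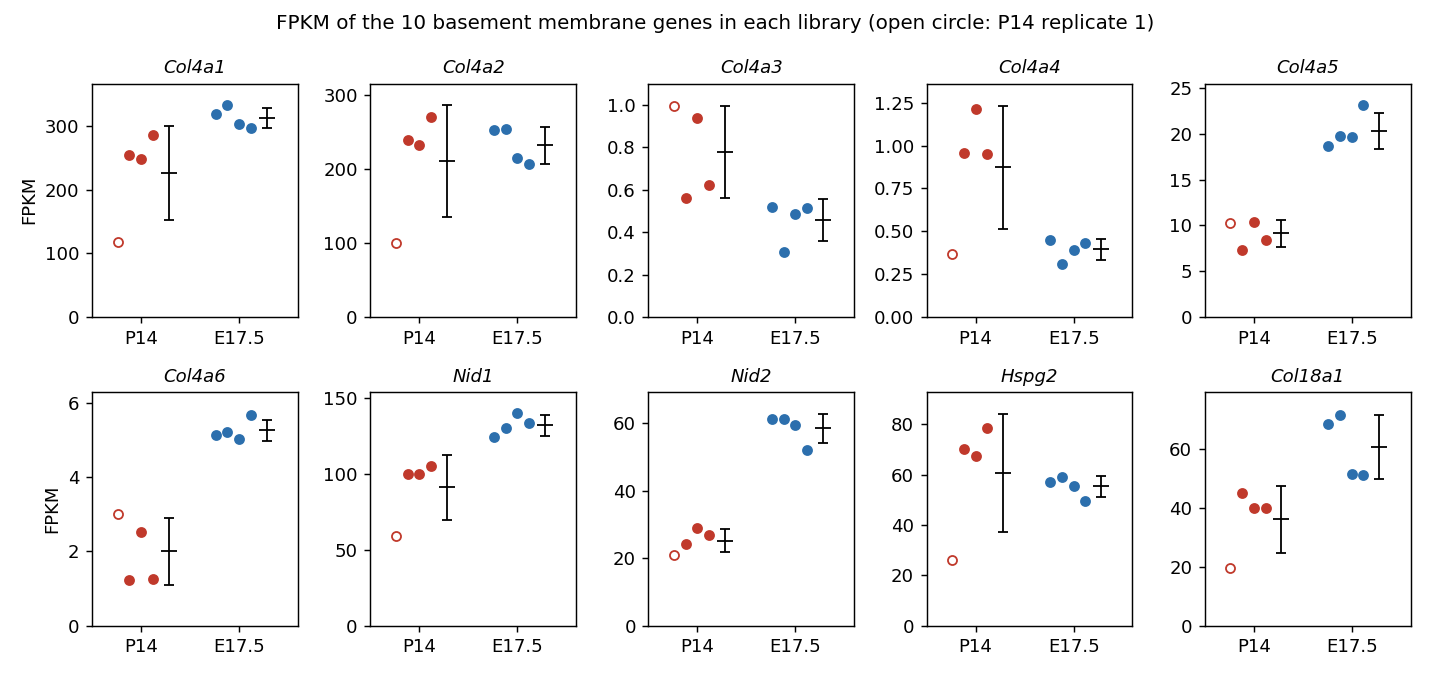
FPKM (linear axes from 0) of each of the 10 genes in the 4 P14 and the 4 E17.5 libraries. Circles are libraries, the open circle is P14 replicate 1, and bars are the mean and SD over 4 libraries. Nid2, Col4a5 and Col4a6 have all P14 libraries well below E17.5, while the ages overlap in Col4a2 and, through the open circle, in Hspg2 and Col4a4.

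Col4a1 (gene 12826, chromosome 8, 11248423 to 11362889, minus strand, GRCm39) had the highest level of the 10 genes at both ages. The P14 replicates 1 to 4 held 118, 254, 248 and 286 FPKM, against 319, 333, 303 and 297 FPKM in the E17.5 replicates. Every P14 library lay below every E17.5 library, and P14 replicate 1 was by far the lowest. The means were 226 ± 74.4 FPKM at P14 and 313 ± 16.1 FPKM at E17.5 (SD, n = 4 each), and the log2 fold change of -0.54 (SE 0.263, adjusted p = 0.167) did not pass. Col4a1 fell by 0.25 on the log2 scale once P14 replicate 1 was left out (SE 0.0809, adjusted p = 0.0296), with a P14 mean of 263 ± 20.1 FPKM over 3 libraries.

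Col4a2 (gene 12827, chromosome 8, 11362805 to 11499287, plus strand) encodes the partner chain of Col4a1. The P14 replicates 1 to 4 held 100.1, 239.6, 232 and 271 FPKM, against 253, 254, 215 and 206 FPKM in the E17.5 replicates. The ages overlapped, with 3 P14 libraries in or above the E17.5 range. On the log2 scale the fold change was -0.23 (SE 0.299, adjusted p = 0.604, 95% interval -0.92 to 0.46) and turned to 0.10 without P14 replicate 1 (SE 0.103, adjusted p = 0.465, interval -0.14 to 0.33).

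Within a library, where scaling cancels, Col4a2 was set against Col4a1. The ratio was 0.851, 0.943, 0.937 and 0.948 in P14 replicates 1 to 4 and 0.795, 0.761, 0.708 and 0.695 in E17.5 replicates 1 to 4. All P14 libraries stood above all E17.5 libraries, and P14 replicate 1 lay between the rest of its group and E17.5. The difference was 0.31 on the log2 scale (exact two-sided permutation p = 0.0286, the smallest that 4 against 4 libraries allow). 4 of the 7 ratios tested reached that smallest p, and their adjusted value of 0.05 is at, not under, the threshold. Without P14 replicate 1 the difference was 0.35 (exact p = 0.0286, adjusted 0.0333). That p is again the smallest possible, for 4 against 3 libraries. The adjusted value, here and for the ratios below, is lower only because more ratios tie at it.

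Col4a1 and Col4a2 lie head to head on opposite strands, and their gene models share 85 bases, in which reads cannot be assigned to one gene without strand. In the RefSeq promoter table (GRCm38.p6) the stretch from one start site to the other, both included, is 22 bases. Col4a1 starts at 11312826 and Col4a2 at 11312805, so the stretch lies within both genes and not between them. It is shown because both genes start at its ends. It is chr8:11312805-11312826, plus strand, with the GC box in capitals, which is GGGCGG.
Col4a1 and Col4a2: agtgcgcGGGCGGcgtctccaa

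Col4a5 (gene 12830, chromosome X, 140258367 to 140472232, plus strand), the chain mutated in X-linked Alport kidney disease in people, was at 10.3, 7.35, 10.4 and 8.43 FPKM in P14 replicates 1 to 4. In E17.5 replicates 1 to 4 it was at 18.7, 19.8, 19.6 and 23.1 FPKM. The groups were far apart, and in FPKM P14 replicate 1 was not low among the P14 libraries. By share of reads Col4a5 was at 0.00526% in P14 replicate 1 and at 0.00492% to 0.0072% in P14 replicates 2 to 4. The means were 9.11 ± 1.48 FPKM at P14 and 20.3 ± 1.93 FPKM at E17.5 (SD, n = 4 each), so that P14 stood at 0.449 times E17.5. Col4a5 fell by 1.08 on the log2 scale (SE 0.131, adjusted p = 0.00171), and the omission of P14 replicate 1 gave a fall of 1.14 (adjusted p = 0.000158).

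Col4a6 (gene 94216, chromosome X, 139948399 to 140257091, minus strand), its neighbour, had 3.01, 1.24, 2.53 and 1.25 FPKM in P14 replicates 1 to 4, against 5.14, 5.22, 5.02 and 5.66 FPKM in the E17.5 replicates. Each P14 library lay below each E17.5 library, and P14 replicates 1 and 3 stood above replicates 2 and 4. Col4a6 fell by 1.11 (SE 0.209, adjusted p = 0.00881) and by 1.26 without P14 replicate 1 (adjusted p = 0.000461). The P14 mean was 2.01 ± 0.902 FPKM, against 5.26 ± 0.281 FPKM at E17.5. P14 replicates 1 and 3 were also the P14 libraries with the most epithelial RNA, at summed marker levels of 3973 and 628 FPKM beside 123 and 228 FPKM in replicates 2 and 4. The part of epithelium in the levels of Col4a5 and Col4a6 at P14 was not tested.

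The ratio of Col4a6 to Col4a5 was 0.292, 0.169, 0.244 and 0.148 in P14 replicates 1 to 4 and 0.245 to 0.274 at E17.5, and the ages overlapped (log2 difference -0.34, exact two-sided permutation p = 0.286, adjusted 0.333). The ratio of Col4a5 to Col4a1 was 0.0289 to 0.0418 in P14 replicates 2 to 4 and 0.0876 in P14 replicate 1, against 0.0588 to 0.0777 at E17.5. P14 replicate 1 was above all E17.5 libraries and the other 3 below them, and the difference over all libraries, -0.62, did not pass (exact p = 0.171, adjusted 0.24). Without P14 replicate 1 it was -0.97, and that of Col4a6 to Col4a5 was -0.51 (exact p = 0.0286 and adjusted 0.0333 for each).

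The start sites of Col4a6 and Col4a5 lie 1276 bases apart in the deposited table, again head to head. Their promoters are shown because both genes fell, and that of Hspg2 because it was the member that rose without P14 replicate 1. Each sequence is the exon-free part of the 250 bases before the start, on the gene's strand, from RefSeq (GRCm38.p6), with CCAAT and GC boxes (GGGCGG) in capitals on either strand. The positions are chrX:141474077-141474326 (minus) for Col4a6, chrX:141475169-141475384 (plus) for Col4a5 and chr4:137468553-137468768 (plus) for Hspg2.
Col4a6: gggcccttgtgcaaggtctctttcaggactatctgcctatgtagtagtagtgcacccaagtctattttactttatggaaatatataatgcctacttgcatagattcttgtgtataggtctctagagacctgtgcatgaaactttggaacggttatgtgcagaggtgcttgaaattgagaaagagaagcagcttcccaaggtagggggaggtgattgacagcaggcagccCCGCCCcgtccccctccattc
Col4a5: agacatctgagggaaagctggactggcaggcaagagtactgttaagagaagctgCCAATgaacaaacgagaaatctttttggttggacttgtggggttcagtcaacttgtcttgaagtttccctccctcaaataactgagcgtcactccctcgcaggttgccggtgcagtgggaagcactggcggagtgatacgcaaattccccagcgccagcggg
Hspg2: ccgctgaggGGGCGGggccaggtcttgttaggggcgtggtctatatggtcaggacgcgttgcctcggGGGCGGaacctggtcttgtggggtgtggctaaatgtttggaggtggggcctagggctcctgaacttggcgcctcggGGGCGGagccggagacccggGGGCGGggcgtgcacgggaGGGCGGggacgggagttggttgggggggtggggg

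Over the full 250 bases, Hspg2 held 5 GC boxes, while Col4a5 and Col4a6 held 1 each. That of Col4a5 lies in the 34 bases of its window taken up by annotated exons, which are not shown above. The table had 9 such windows for 8 of the 10 genes, Col18a1 having 2. A GC box was in 6 of the 9 and in 32.7% of all 32851 windows, and CCAAT in 5 of the 9 and in 33.8% of all. TATAAA was in 0 of the 9 (12.4% of all). GGAATG, the core letters bound by TEAD factors, was in 2 of the 9, those of Nid1 and of the second Col18a1 start (12.6% of all). Both strands were searched, and no hits of different motifs overlapped. Annotated exons took up all 250 bases of the Col4a1 and Col4a2 windows, so the hits there lie in exons. They took up 241 bases of the second Col18a1 window, and its GGAATG hits lie in these, as its 9 exon-free bases hold none. Exons also took up 179 bases of the Col4a4 window, which held none of the motifs. The counts above include hits in exons. The G and C share was 70% in the Hspg2 window, 54% in that of Col4a5 and 47.6% in that of Col4a6.

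Col4a3 and Col4a4 did not reach 1 FPKM in 4 libraries, the minimum for the test. Col4a3 was at 0.993, 0.562, 0.940 and 0.623 FPKM in P14 replicates 1 to 4 and at 0.308 to 0.517 FPKM at E17.5, which is 92 to 158 reads at P14 and 48 to 92 reads at E17.5. Col4a4 was at 0.369, 0.956, 1.22 and 0.950 FPKM in P14 replicates 1 to 4 and at 0.309 to 0.447 FPKM at E17.5. All P14 libraries were above E17.5 for Col4a3, and all but P14 replicate 1 for Col4a4. Their start sites lie 72 bases apart, head to head. With no filter on low values, the log2 fold changes were 0.28 for Col4a3 (adjusted p = 0.196) and 0.40 for Col4a4 (adjusted p = 0.161). The ratio of Col4a4 to Col4a3 was 1.29 to 1.7 in P14 replicates 2 to 4 and 0.372 in P14 replicate 1, against 0.804 to 1 at E17.5, and was not tested at these levels.

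Per length, Col4a1 and Col4a2 together made up 98%, 97% and 98% of the summed collagen IV FPKM in P14 replicates 2 to 4 and 93.7% in P14 replicate 1, against 94.4% to 95.8% at E17.5. Col4a5 and Col4a6 made up 1.7% to 2.6% in P14 replicates 2 to 4 and 5.73% in P14 replicate 1, against 4% to 5.39% at E17.5. Col4a3 and Col4a4 made up 0.277% to 0.587% at P14 and 0.101% to 0.177% at E17.5. The summed collagen IV level was 496 to 567 FPKM in P14 replicates 2 to 4 and 232 FPKM in P14 replicate 1, against 533 to 612 FPKM at E17.5.

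The nidogens link laminin to collagen IV. Nid2 (gene 18074, chromosome 14, 19801325 to 19861855, plus strand) had 20.8, 24.1, 28.95 and 26.96 FPKM in P14 replicates 1 to 4, against 61.1, 61.04, 59.3 and 52.1 FPKM in the E17.5 replicates. In FPKM the P14 libraries were close to each other, P14 replicate 1 included, and far below E17.5. By share of reads Nid2 was at 0.00793% in P14 replicate 1, below the 0.012% to 0.015% of P14 replicates 2 to 4. Nid2 fell by 1.19 on the log2 scale (SE 0.125, adjusted p = 0.00103), to a mean of 25.2 ± 3.54 FPKM at P14, against 58.4 ± 4.26 FPKM at E17.5. With P14 replicate 1 left out it fell by 1.10 (adjusted p = 5.36e-05). Its gene model shares 386 bases with Rtraf on the other strand, which was at 65.0 to 102 FPKM, so reads in that stretch are uncertain.

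Nid1 (gene 18073, chromosome 13, 13612187 to 13686860, plus strand) had 59.3, 99.8, 100 and 105 FPKM in P14 replicates 1 to 4, against 124, 130.4, 140.2 and 133 FPKM in the E17.5 replicates. All P14 libraries were below E17.5, and P14 replicate 1 was well below the other 3. The log2 fold change of -0.56 (SE 0.186, adjusted p = 0.05995) missed the threshold, and without P14 replicate 1 Nid1 fell by 0.37 (SE 0.0707, adjusted p = 0.00306). The ratio of Nid2 to Nid1 was 0.351, 0.241, 0.289 and 0.256 in P14 replicates 1 to 4, against 0.492, 0.468, 0.423 and 0.391 in E17.5 replicates 1 to 4. No P14 library reached the E17.5 range (log2 difference -0.65, exact two-sided permutation p = 0.0286, adjusted 0.05), and the omission of P14 replicate 1 gave -0.76 (exact p = 0.0286, adjusted 0.0333).

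Nid1 binds the laminin chain encoded by Lamc1, and their levels stayed close to a 1 to 1 ratio. The ratio of Nid1 to Lamc1 was 1.04, 0.942, 0.951 and 0.904 in P14 replicates 1 to 4 and 0.939, 0.976, 0.992 and 1.01 in E17.5 replicates 1 to 4. The ages overlapped, with a log2 difference of -0.03 and SDs of 0.0848 at P14 and 0.0449 at E17.5 (exact two-sided permutation p = 0.571). P14 replicate 1 had the highest of the 8 ratios. Its omission gave a difference of -0.07 (exact p = 0.114).

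Perlecan, the product of Hspg2 (gene 15530, chromosome 4, 137196062 to 137297941, plus strand), carries heparan sulfate chains that hold growth factors. Hspg2 had 26.2, 70.04, 67.5 and 78.5 FPKM in P14 replicates 1 to 4, against 57.0, 59.1, 55.5 and 49.3 FPKM in the E17.5 replicates. P14 replicate 1 was the lowest of all 8 libraries, and the other 3 P14 libraries were the highest. Over all libraries Hspg2 differed by 0.02 on the log2 scale (SE 0.322, adjusted p = 0.967, 95% interval -0.72 to 0.76), and its sign turned under TPM rescaling, quantile normalization and voom. With P14 replicate 1 left out, Hspg2 rose by 0.38 (SE 0.0887, adjusted p = 0.00836), to 72.0 ± 5.78 FPKM over 3 P14 libraries, against 55.2 ± 4.21 FPKM at E17.5.

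Relative to Col4a1, Hspg2 was higher in every P14 library, P14 replicate 1 included. The ratio was 0.223, 0.276, 0.272 and 0.275 in P14 replicates 1 to 4, against 0.179, 0.177, 0.183 and 0.166 in E17.5 replicates 1 to 4. Within each age the values were tight except for P14 replicate 1 (log2 difference 0.56, exact two-sided permutation p = 0.0286, adjusted 0.05). Without P14 replicate 1 the difference was 0.64 (exact p = 0.0286, adjusted 0.0333).

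Col18a1 (gene 12822, chromosome 10, 76888013 to 77002391, minus strand) had 19.5, 45.2, 40.0 and 40.0 FPKM in P14 replicates 1 to 4, against 68.8, 71.8, 51.7 and 51.3 FPKM in the E17.5 replicates. The ages did not overlap, and E17.5 replicates 1 and 2 stood above replicates 3 and 4. At -0.78 the log2 fold change missed the threshold (SE 0.267, adjusted p = 0.0659), and without P14 replicate 1 Col18a1 fell by 0.52 (SE 0.136, adjusted p = 0.0134). The ratio of Col18a1 to Hspg2 was 0.745, 0.646, 0.593 and 0.51 in P14 replicates 1 to 4, against 1.21, 1.21, 0.932 and 1.04 in E17.5 replicates 1 to 4 (log2 difference -0.82, exact two-sided permutation p = 0.0286, adjusted 0.05). These ranges did not overlap, and the omission of P14 replicate 1 gave -0.91 (exact p = 0.0286, adjusted 0.0333).

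**Figure D2:**
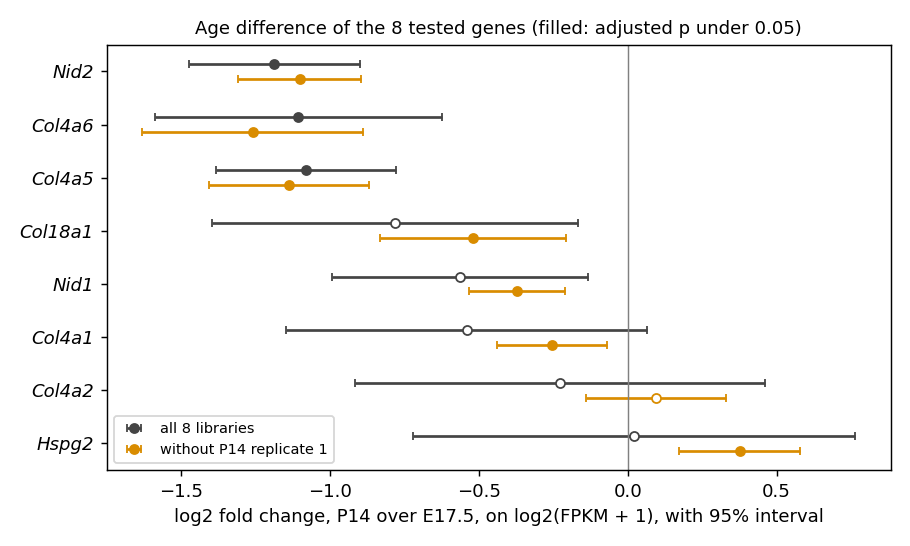
Change at P14 relative to E17.5, as a log2 fold change of FPKM + 1 with limma's 95% interval, for the 8 tested genes. Grey is with all 8 libraries and orange without P14 replicate 1, and filled circles passed an adjusted p of 0.05. Nid2, Col4a6 and Col4a5 are filled in both, at -1.08 to -1.26, and Hspg2 is at 0.02 and 0.38.

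**Figure D3:**
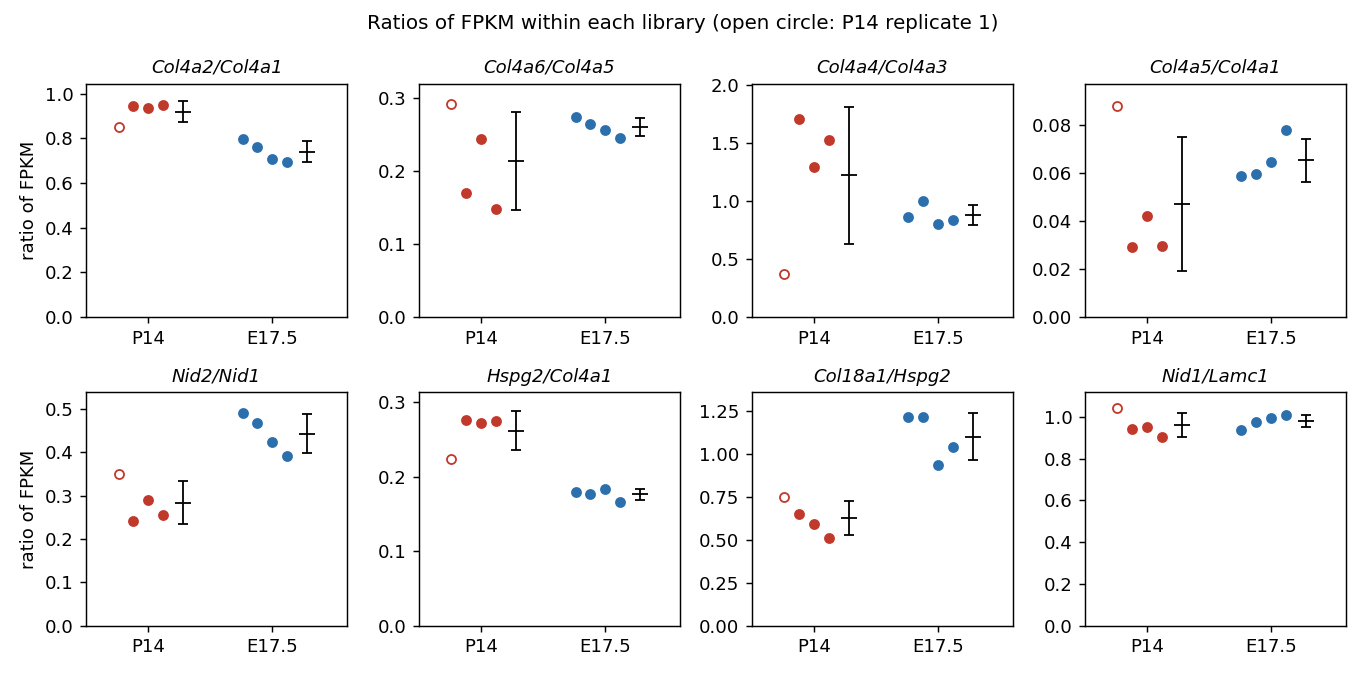
Ratio of FPKM of 2 genes within a library (linear axes from 0), with P14 libraries to the left of E17.5 libraries. Circles are libraries, the open circle is P14 replicate 1, and bars are the mean and SD over 4 libraries. Col4a2/Col4a1 and Hspg2/Col4a1 are higher in every P14 library, Nid2/Nid1 and Col18a1/Hspg2 are lower in every P14 library, and Nid1/Lamc1 stays between 0.904 and 1.04.

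Read apart, P14 replicate 1 split the 10 genes by FPKM. Its level relative to the mean of P14 replicates 2 to 4 was 0.364 for Hspg2, 0.404 for Col4a2, 0.448 for Col4a1, 0.468 for Col18a1 and 0.583 for Nid1, and it was 0.355 for Col4a4. It was 0.78 for Nid2, 1.18 for Col4a5, 1.4 for Col4a3 and 1.8 for Col4a6. These ratios are of FPKM, which in P14 replicate 1 rest on a library size of 0.78 times its reads. By share of reads, Col4a5, Col4a3 and Col4a6 of P14 replicate 1 lay within the range of P14 replicates 2 to 4, and Nid2 lay below it. Over the tested markers the median FPKM ratio was 0.316 for smooth muscle, 0.359 for pericytes, 0.37 for fibroblasts and 0.49 for blood endothelium. It was 13.2 for the epithelium and 1.02 over all tested genes. Median-of-ratios size factors of 0.999 in every library keep the median over all genes near 1. The 10 genes together took 0.21% of the reads of P14 replicate 1 and 0.589% to 0.659% in P14 replicates 2 to 4, against 0.625% to 0.73% at E17.5. The part of cell composition in these ratios was not tested.

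**Figure D4:**
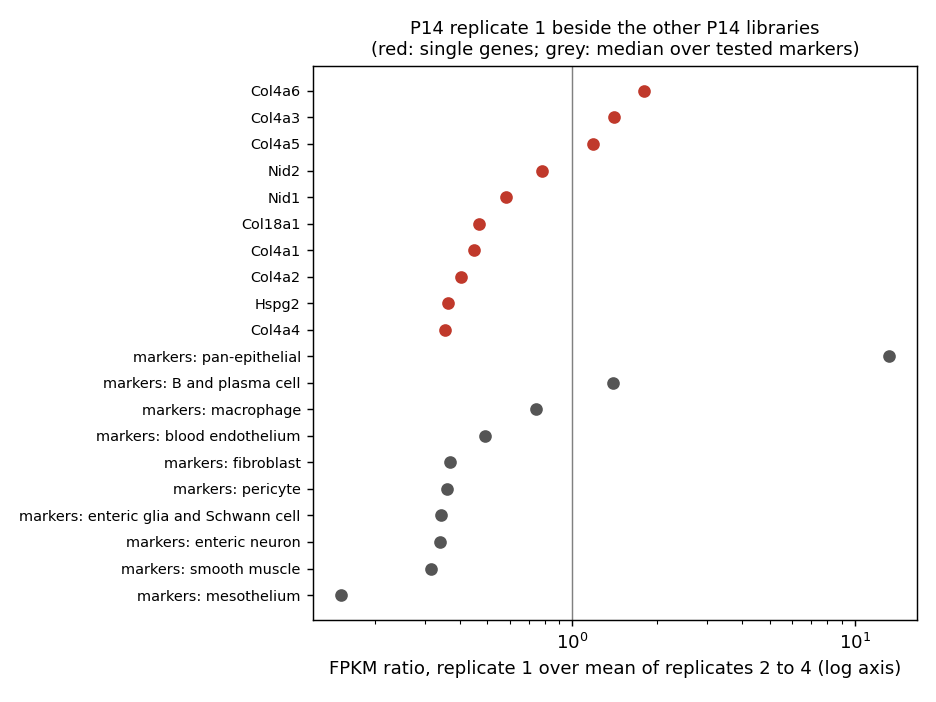
FPKM in P14 replicate 1 divided by the mean of P14 replicates 2 to 4 (log axis) for the 10 genes (red) and, as the median over tested genes, for 10 marker lists (grey). Col4a6, Col4a3 and Col4a5 lie above 1, and Hspg2, Col4a2 and Col4a1 lie at 0.364 to 0.448, beside the gut wall markers.

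Markers of some of the cell types that make basement membrane also differed between the ages. Of 10 blood endothelial markers 7 were called lower and 0 higher by limma (7 and 0 at an unadjusted p under 0.05, 6 and 0 by limma voom). With P14 replicate 1 left out these were 7 and 2. Of all tested genes limma called 15% lower and 9.72% higher, and 26.9% and 22.6% without P14 replicate 1. The endothelial sum was 256 FPKM in P14 replicate 1 and 472 to 562 FPKM in P14 replicates 2 to 4. At E17.5 it was 674 to 712 FPKM. Of 9 tested smooth muscle markers 0 passed limma's test with all libraries (3 higher and 0 lower at an unadjusted p under 0.05, 0 by limma voom), and 9 were higher without P14 replicate 1. Pericyte markers summed to 366 to 427 FPKM in P14 replicates 2 to 4 and 156 FPKM in P14 replicate 1, against 255 to 276 FPKM at E17.5, with 1 of 7 called higher and 3 lower (0 and 3 by limma voom, 3 and 4 without P14 replicate 1). Fibroblast markers summed to 2508 to 2571 FPKM in P14 replicates 2 to 4 and 915 FPKM in P14 replicate 1, against 2265 to 2512 FPKM at E17.5, and of 7 tested 1 was called higher and 1 lower (3 and 1 without P14 replicate 1). Glial markers summed to 53.7 to 97.7 FPKM in P14 replicates 2 to 4 and 26.4 FPKM in P14 replicate 1, against 54.1 to 59.0 FPKM at E17.5, and of 5 tested 2 were called higher and 0 lower by limma (2 and 0 unadjusted, 0 and 0 by limma voom, 4 and 0 without P14 replicate 1). Their part in the levels of the 10 genes was not tested.

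The 5 protein-coding genes whose pattern was most like that of Col4a1 were Sertad4, Heg1, Robo4, Scarf1 and Efnb3. The SD over the 8 libraries of their log2(FPKM + 1) difference to Col4a1 was 0.0624, 0.0722, 0.0777, 0.0812 and 0.0813, out of 12692 genes compared. Among the other members Nid1 came closest, at rank 162 with an SD of 0.155, before Col4a2 at rank 336 with 0.184 and Col18a1 at rank 464 with 0.203. Hspg2 ranked 1666, Nid2 4035, Col4a5 6580 and Col4a6 8845. The libraries share their depth, age and epithelial content across all genes, so these ranks only describe the pattern.

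Among the laminin chains, 3 of 10 tested genes fell and 0 rose by limma, beside the 15% and 9.72% of all tested genes. Without P14 replicate 1 there were 4 and 3, beside 26.9% and 22.6% of all. With all libraries, 4 fell and 0 rose at an unadjusted p under 0.05 by limma, and limma voom called 2 and 0. Lamb1, the highest of them at E17.5 and below Lamc1 (96.2 ± 26.6 FPKM) at P14, fell to 77.9 ± 21.7 FPKM at P14, against 164 ± 4.36 FPKM at E17.5 (log2 fold change -1.11, adjusted p = 0.0102). Lamc3 fell by 1.13 (adjusted p = 0.00528) and Lama4, a chain of vessel basement membranes, by 1.02 (adjusted p = 0.0206). Lama4 did not pass once an E17.5 library, whichever it was, was left out (adjusted p 0.052 to 0.0631). The median log2 fold change of the list was -0.16.

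Of 17 tested other basement membrane proteins, 2 rose and 5 fell, where 9.72% of all tested genes rose and 15% fell. Without P14 replicate 1 there were 4 and 7, where 22.6% of all tested genes rose and 26.9% fell. Hmcn2, which encodes a hemicentin, rose to 64.8 ± 24.8 FPKM at P14, against 12.0 ± 0.817 FPKM at E17.5 (log2 fold change 2.23, adjusted p = 0.00329). Smoc1, a calcium-binding matrix protein gene, fell by 1.88 (adjusted p = 0.000808), and Frem1, of the Fraser complex, by 1.29 (adjusted p = 0.0042). The other 3 falls were Egflam, Hmcn1 and Npnt, at -1.22, -1.02 and -0.62 (adjusted p = 0.0059, 0.00123 and 0.047). Npnt passed on omission of P14 replicate 1 or 3 but of no other library (adjusted p 0.0694 to 0.119). Sparc, which encodes a collagen-binding protein and had the highest level, was at 782 ± 274 FPKM at P14 and 873 ± 54.3 FPKM at E17.5 (adjusted p = 0.558). The other rise, Tinagl1, was at 107 ± 35.8 FPKM at P14 and 42.5 ± 11.7 FPKM at E17.5 (log2 fold change 1.28, adjusted p = 0.0177). It missed the threshold without E17.5 replicate 3 (0.0585) or 4 (0.0554), which left 1 rise.

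The median of 18 genes of collagen IV folding, modification and export was -0.47 on the log2 scale. Of these genes 0 rose and 4 fell by limma, beside 9.72% and 15% of all tested genes. At an unadjusted p under 0.05 these were 0 and 8, and limma voom called 0 and 3. P4ha1, a catalytic subunit of the prolyl hydroxylase that stabilizes the triple helix, fell to 9.81 ± 2.19 FPKM at P14, against 36.8 ± 2.79 FPKM at E17.5 (log2 fold change -1.83, adjusted p = 0.000693). P4ha2, its paralog, fell by 1.07 (adjusted p = 0.0363) and Plod2, a lysyl hydroxylase, by 0.58 (adjusted p = 0.0383), as did its paralog Plod3 by 0.53 (adjusted p = 0.0203). Serpinh1, the collagen chaperone HSP47, had the highest mean of the list at E17.5, and at P14 only with P14 replicate 1 left out. It was at 318 ± 132 FPKM at P14 and 448 ± 64.3 FPKM at E17.5 (adjusted p = 0.243). The count of falls was 8 without P14 replicate 1, beside 26.9% of all tested genes. It was 1 without P14 replicate 3 or E17.5 replicate 1, 2 or 3. It was 2 without E17.5 replicate 4 or with no filter on low values. P4ha2 missed the threshold on omission of P14 replicate 3 or of each E17.5 library in turn (adjusted p 0.0711 to 0.0907). Plod2 missed it on omission of each library but P14 replicates 1 and 4 (adjusted p 0.0535 to 0.106), and Plod3 on omission of P14 replicate 3 or E17.5 replicate 1, 2 or 3 (adjusted p 0.0562 to 0.0622).

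Heparan sulfate is the chain carried by perlecan and collagen XVIII. Of 23 tested genes that make or trim it, 1 rose and 8 fell (9.72% and 15% of all tested genes). Among the falls, Ndst3 and Hs6st2 had means of 0.436 and 0.655 FPKM at P14, against 1.36 and 1.76 FPKM at E17.5. They met the filter of 1 FPKM in 4 libraries mainly through E17.5, which favours a call of lower. Without P14 replicate 1, 2 of the 23 genes rose and 11 fell (22.6% and 26.9% of all). Sulf2, an extracellular sulfatase and the highest of them at E17.5 but not at P14, fell to 20.0 ± 7.41 FPKM at P14, against 49.2 ± 5.15 FPKM at E17.5 (log2 fold change -1.31, adjusted p = 0.0053). Hs3st3b1, a sulfotransferase, fell by 2.02 (adjusted p = 0.000573) and Sulf1 by 0.87 (adjusted p = 0.031). Omission of P14 replicate 3 or of each E17.5 library in turn put Sulf1 above the threshold (adjusted p 0.0567 to 0.0889). The 1 rise was Hs3st1, a sulfotransferase, at 0.62 (adjusted p = 0.0191, and 0.059 without E17.5 replicate 3).

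Of 11 receptors for basement membrane, 1 rose and 2 fell, near the 9.72% and 15% of all tested genes. Itga2, a collagen-binding integrin chain, fell to 3.41 ± 2.12 FPKM at P14, against 13.6 ± 1.59 FPKM at E17.5 (log2 fold change -1.82, adjusted p = 0.00408), and Itga6, a laminin-binding one, fell by 1.04 (adjusted p = 0.00181). Ddr1, a receptor kinase for collagen, rose by 0.49 (adjusted p = 0.0467), a call that held only with all libraries or on omission of replicate 1 of either age (adjusted p 0.0551 to 0.132 on each other omission). Itgb1, the highest, was at 278 ± 78.2 FPKM at P14 and 353 ± 13.6 FPKM at E17.5 (adjusted p = 0.216). The counts were 5 and 2 without P14 replicate 1, beside 22.6% and 26.9% of all tested genes.

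Of 14 tested proteases of basement membrane and their inhibitors, 1 rose and 3 fell (9.72% and 15% of all tested genes). Without P14 replicate 1 there were 2 and 5 (22.6% and 26.9% of all). Mmp9 and Mmp2, gelatinases that cut collagen IV, fell by 2.14 (adjusted p = 0.00379) and by 1.58 (adjusted p = 0.000964). Mmp2 was at 53.1 ± 10.9 FPKM at P14 and 159 ± 16.3 FPKM at E17.5. Adamts1, which encodes a secreted metalloprotease, fell by 1.46 (adjusted p = 0.0068), and the 1 rise was Htra1, a secreted serine protease gene, at 1.38 (adjusted p = 0.00603). Ctsl, which encodes cathepsin L, had the highest mean over all libraries through P14 replicate 1. It was at 435 ± 611 FPKM at P14 and 45.9 ± 5.29 FPKM at E17.5 (adjusted p = 0.0997), and the P14 mean was 132 ± 93.5 FPKM with P14 replicate 1 left out (adjusted p = 0.05003). It passed without P14 replicate 2 (0.0453), which brought the count of rises to 2.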

How the data were processed

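For each of 8 RNA-seq libraries of mouse small-intestinal mesenchyme the authors deposited 1 FPKM value per gene, the reads set relative to library size and gene length. Per the submitters' processing notes, CASAVA, fastp, HISAT2, featureCounts, DESeq2 1.20.0 and GRCm39 were used. Their roles, and whether strand was used, are not given in the sources used here. Reads were recovered from FPKM times gene length, which was a whole multiple of a library's smallest value in 100% of cases (tolerance 1e-06). The size factors by median of ratios of the deposited FPKM were 0.999 in every library. Loci without a gene name (302) held 0.183% to 0.246% of each library's reads and 101 were tested.

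Genes at 1 FPKM or more in at least 4 libraries (14044) were tested as log2(FPKM + 1), a pseudocount that shrinks the fold changes of low genes. The ages were compared with limma 3.58.1 in R 4.3.3, with intensity trend and robust moderation, two-sided, with p-values adjusted by Benjamini-Hochberg across the tested genes. All adjusted p-values of single genes are from that fit, called under 0.05. Ratios of FPKM within a library were compared by exact two-sided permutation tests on the log2 scale, adjusted over the 7 ratios tested. The test was checked on simulated data. Pseudocount, filter, 3 scalings, moderation, the replicate block, limma voom on recovered reads and leaving out each library were the alternatives.

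The members, lists and alternatives were chosen with earlier results of these data known, and the lists are described by counts only. The rule for named genes took all 10 members. From each pathway list it took up to 3 called genes with the largest change and the tested gene with the highest mean level, which in the laminin list and the heparan sulfate list was itself among the called genes. It also took the 5 tested protein-coding genes with the smallest SD of the log2(FPKM + 1) difference to Col4a1. Other genes named were chosen after their values were seen. Promoter windows are from RefSeq (GRCm38.p6), and exons within them from GENCODE on the same assembly.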

Additional observations from a re-analysis of the deposited data

Results flagged for a closer look

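In 3 of the 4 cases below the value set apart was that of P14 replicate 1, and in all 4 the gap to the nearest other library of the age exceeded Dixon's 95% limit (0.829 of the range for 4 libraries). 34 sets of 4 values were examined, and chance flags about 1 in 20. Nid1 was at 59.3 FPKM in P14 replicate 1, where the other P14 libraries held 99.8 to 105 FPKM. The ratio of Col4a2 to Col4a1 was 0.851 in P14 replicate 1, below the 0.937 to 0.948 of the other P14 libraries. The ratio of Hspg2 to Col4a1 was 0.223 in P14 replicate 1, below 0.272 to 0.276. Col4a3 was at 0.308 FPKM in E17.5 replicate 2, from 48 reads, where the other E17.5 libraries held 0.488 to 0.517 FPKM.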

How the results depend on the processing

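Nid2, Col4a5 and Col4a6 were called lower under all 17 alternatives, with log2 fold changes of -1.40 to -1.10, -1.32 to -0.99 and -1.60 to -0.98. Among the alternatives, median-of-ratios scaling only repeated the main fit, as its size factors were 0.999 in every library. TPM rescaling shifted the median over all tested genes by -0.19 and gave -1.40, -1.32 and -1.50 for the 3 genes. It left 899 genes higher, 25.1% of the calls against 39.3%, where quantile normalization gave 34.6% and voom, with 894 genes higher, 29.7%. Without P14 replicate 1 and with TPM, an alternative added after the data were seen, 2741 genes were higher and 4387 lower, and 1 member was higher and 6 lower. Leaving out 1 library gave 617 to 3176 genes higher, 1118 to 3782 lower, and 0 to 1 members higher and 3 to 6 lower. Among these omissions, only that of P14 replicate 1 moved the members' counts. The log2 fold change of Hspg2 was -0.17 with TPM, -0.13 with quantile normalization, -0.077 with voom and -0.14 to 0.38 with 1 library left out. That of Col4a2 was -0.38 to 0.10 with 1 library left out and 0.026 without P14 replicate 1 and with TPM. That of Sparc was -0.38 to 0.075 and 0.00442. The cause was not tested.

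With 1 library left out, the log2 differences of the ratios were 0.29 to 0.35 for Col4a2/Col4a1, -0.51 to -0.18 for Col4a6/Col4a5, -0.97 to -0.44 for Col4a5/Col4a1, -0.76 to -0.58 for Nid2/Nid1, 0.53 to 0.64 for Hspg2/Col4a1, -0.91 to -0.73 for Col18a1/Hspg2 and -0.07 to -0.0027 for Nid1/Lamc1.

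Replicate numbers are shared by the ages, but the deviations of same-numbered libraries correlated at -0.0641 to 0.00947 over genes and 0 of 8 libraries correlated best with their own number. With the replicate block, 695 genes were higher and 1049 lower, 3 members were lower, and 1 gene of collagen IV folding was lower. Over 4 pairs the smallest p of a ratio is 0.125, so no ratio could pass.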

Other observations

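Markers of some other cells of the gut wall also differed between the ages. Of all tested genes limma called 9.72% higher and 15% lower, and 22.6% and 26.9% without P14 replicate 1. Of 6 macrophage markers 5 fell and 0 rose by limma with Benjamini-Hochberg adjustment (5 and 0 at an unadjusted p under 0.05, 4 and 0 by limma voom, 6 and 0 without P14 replicate 1). Their sum was 114 to 181 FPKM at P14, against 261 to 304 FPKM at E17.5. Of 4 tested B and plasma cell markers 3 rose (2 by limma voom, 3 without P14 replicate 1), with sums of 16.5 to 118 FPKM at P14, against 4.33 to 6.27 FPKM at E17.5. The 3 were Cd79a, Jchain and Mzb1, with E17.5 means of 0.482, 0.0818 and 0.715 FPKM. They met the filter on low values mainly through P14, which favours a call of higher. Of 6 enteric neuron markers and of 5 mesothelial markers 0 passed limma's test, with 1 and 0 higher at an unadjusted p under 0.05 and 0 by limma voom. With P14 replicate 1 left out, 3 neuron and 4 mesothelial markers were called higher and 0 lower. Neuron markers summed to 262 to 332 FPKM in P14 replicates 2 to 4 and 109 FPKM in P14 replicate 1, against 186 to 223 FPKM at E17.5. Mesothelial markers summed to 123 to 157 FPKM in P14 replicates 2 to 4 and 20.1 FPKM in P14 replicate 1, against 57.3 to 100.1 FPKM at E17.5.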
